A study of Mus musculus with 4 samples.

Results

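Krüppel-like factors were measured in whole mouse islets at low and at high glucose. The 10 genes *Klf2*, *Klf3*, *Klf4*, *Klf6*, *Klf7*, *Klf9*, *Klf10*, *Klf11*, *Klf13* and *Klf15* were chosen by symbol from a table of 33923 entries, or 28047 transcripts once identical entries of a gene were merged. *Klf10* has 2 entries, of which that with the higher mean was used. Islets of male C57bl6 mice 3 months of age were isolated with collagenase, pooled, and cultured overnight in RPMI with 11 mM glucose. All islets were then held for 2 h at 2.8 mM glucose before they were placed at 2.8 mM (LoGlu) or 16.8 mM glucose (HiGlu). The series text and the methods of the study both give 12 h for each group, whereas the labels of the LoGlu libraries give 2 h and those of the HiGlu libraries 12 h. If the labels hold, time in culture and glucose cannot be told apart. There were 2 libraries per group, made from total RNA with the TruSeq v2 kit. In the paper, control and stimulated islets came from the same pool, and nothing names separate animals. The p-values therefore measure the spread between these libraries, which may be technical.

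Krüppel-like factors are DNA-binding proteins that share a row of zinc fingers at the carboxyl end and bind GC-rich and CACCC sequences, which they share with the related Sp factors. Their amino ends differ and recruit co-activators or co-repressors such as CtBP, Sin3a and p300, so that some members activate and others repress. In the pancreas, *Klf11* is known as a regulator of the insulin gene, and rare coding variants in it were tied to an inherited form of diabetes. *Klf15* is best known from liver and muscle, where fasting and glucocorticoids induce it and where it drives amino acid breakdown and gluconeogenesis.

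The values are RPKM, that is, reads scaled to the length of a gene and to the depth of its library. Those of the 10 genes match whole numbers of reads once the length is taken from start to end with all introns. These lengths were fitted, with shifts of up to 100 bases allowed, and were shifted for *Klf10* and *Klf15*. For *Klf7* and *Klf13*, rounding covers up to 0.26 and 0.16 reads, so the match says less about their lengths. Depths were 50800000 to 60710000 reads per library. The reads behind most values were estimated in this way. Of all transcripts, 7867 had a mean of at least 1 RPKM and were tested with limma on log2(RPKM + 0.5), which was the main test. Of the 10 genes, 5 were under that level. For all 10, limma-voom was therefore also run on the reconstructed reads of 18982 transcripts. Adjusted p-values (Benjamini-Hochberg) under 0.05 are called changed, and log2 fold changes are HiGlu minus LoGlu. Over every tested transcript the log2 fold change had a median of -0.112 in the main test and -0.125 by voom, against which the values below stand. As a check of the tissue, *Ins2* lay between 15940 and 18140 RPKM in LoGlu and between 27400 and 30020 in HiGlu, and *Gcg* between 1474 and 2155 RPKM over all 4 libraries. In whole islets, fewer cells of a type and less RNA per cell cannot be told apart.

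The promoters of the members differed in the E-box CACGTG, a site of basic helix-loop-helix factors. RefSeq promoters (GRCm38.p6, from 250 bases before to 50 after the start) were at hand for 9 of the 10 genes, all but *Klf10*. The E-box was found in 4 of these 9 promoters, against 7.15% of all 32851 promoters. *Klf15* has 3 E-boxes, a number reached by 0.0883% of all promoters, and its printed sequence ends inside the last of them. The 250 bases before the start are shown 5′ to 3′ on the strand of the gene for these 4 genes, since they include the member with the widest difference between the groups, with the bases of E-boxes in capitals.
Klf15: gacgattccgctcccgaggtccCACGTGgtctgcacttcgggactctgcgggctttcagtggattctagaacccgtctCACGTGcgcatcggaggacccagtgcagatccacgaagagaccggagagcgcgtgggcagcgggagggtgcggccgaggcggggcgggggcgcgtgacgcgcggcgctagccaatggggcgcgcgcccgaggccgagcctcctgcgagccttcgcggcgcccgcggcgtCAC
Klf11: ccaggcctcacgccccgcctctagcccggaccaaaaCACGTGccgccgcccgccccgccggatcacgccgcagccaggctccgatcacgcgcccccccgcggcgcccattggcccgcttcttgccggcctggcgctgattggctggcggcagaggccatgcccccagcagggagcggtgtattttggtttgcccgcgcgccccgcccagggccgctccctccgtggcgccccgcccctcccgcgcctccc
Klf4: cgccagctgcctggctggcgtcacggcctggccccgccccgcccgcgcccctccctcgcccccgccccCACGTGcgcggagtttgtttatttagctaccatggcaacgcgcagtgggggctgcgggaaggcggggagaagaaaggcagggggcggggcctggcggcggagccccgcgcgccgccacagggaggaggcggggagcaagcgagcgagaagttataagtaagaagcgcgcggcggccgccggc
Klf6: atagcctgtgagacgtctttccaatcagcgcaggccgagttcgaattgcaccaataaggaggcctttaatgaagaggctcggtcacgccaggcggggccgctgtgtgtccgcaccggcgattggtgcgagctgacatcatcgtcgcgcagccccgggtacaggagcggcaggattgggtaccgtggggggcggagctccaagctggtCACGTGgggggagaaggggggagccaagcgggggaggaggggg
These lie at chr6:90462326-90462575 on the plus strand for *Klf15*, chr12:24651121-24651370 on the plus strand for *Klf11*, chr4:55532476-55532725 on the minus strand for *Klf4* and chr13:5861239-5861488 on the plus strand for *Klf6* (GRCm38.p6). Each sequence occurs once in NCBI build 37, the build of the files. It lies directly before the start of the annotated transcript whose span is nearest to that of the deposited entry. For *Klf15* the fitted span is 78 bases shorter than this transcript, so the start of its deposited entry may lie elsewhere. The E-boxes of *Klf15* begin at -228, -172 and -3, that of *Klf11* at -214, that of *Klf4* at -182 and that of *Klf6* at -43, with -1 as the last base before the start. The 4 genes with an E-box did not move in a common direction, as *Klf15* and *Klf11* were lower and *Klf4* was higher at HiGlu. The GC box GGGCGG was found in 8 of the 9 promoters, against 35.7% of all promoters, and the motif CACCC in 6 of 9, against 57.5%. The 9 windows hold 58.3% to 77.7% G and C, and no motif share was adjusted for base content. Both strands were searched over the 300 bases, and matches of different motifs may share bases. The cAMP response element TGACGTCA (1.79% of all promoters) and the SRF CArG box (1.63%) were found in 0 of the 9. A match describes letters in the window and no bound factor.

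Across the family, *Klf15*, *Klf11*, *Klf9* and *Klf3* fell at HiGlu, *Klf4* and *Klf2* rose, and *Klf6*, *Klf10*, *Klf7* and *Klf13* did not pass by voom. Of the 5 genes that the main test could take, 3 were called, namely *Klf4* as higher and *Klf9* and *Klf11* as lower. The main test called 33.4% of all transcripts, 10.7% as higher and 22.8% as lower. By voom, 2 of the 10 genes were called higher and 4 lower, against 41.7% of all transcripts, 13.2% higher and 28.5% lower. Both HiGlu libraries lay above both LoGlu libraries in 2 genes and below them in 6, while 23.3% of transcripts lay above and 46.9% below. With so few members, these shares are not far from those of all transcripts, and nothing is read from them about the family. The median log2 fold change by voom was -0.281 over the 10 genes.

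**Figure D1:**
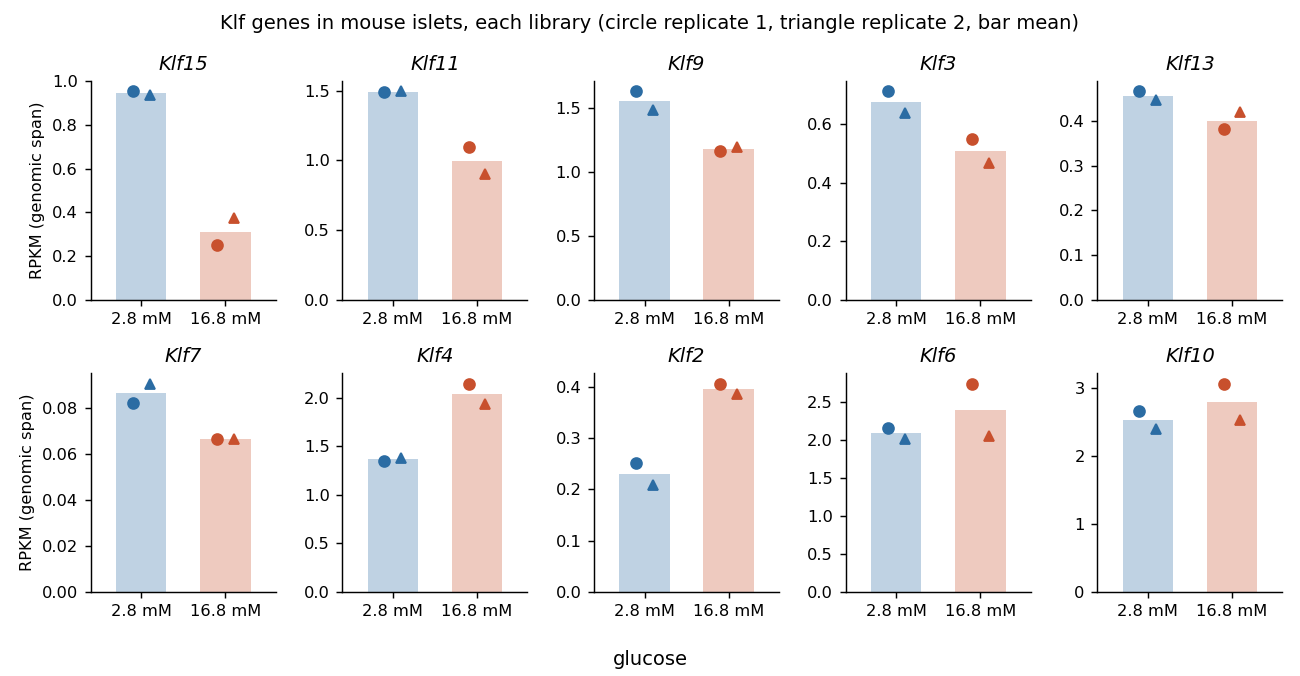
RPKM per genomic span of each Klf gene (vertical axes, each from 0) at 2.8 and 16.8 mM glucose, with circles for replicate 1, triangles for replicate 2 and bars for the mean of 2 libraries. The LoGlu and HiGlu libraries do not overlap in any gene but *Klf6* and *Klf10*.

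*Klf15* showed the widest difference of the 10 genes. It read 0.953 and 0.935 RPKM in the LoGlu libraries and 0.249 and 0.372 RPKM in the HiGlu libraries, from 701, 611, 190 and 238 reads. Both HiGlu libraries were thus well below both LoGlu libraries, and the ratio of the means was 3.04 in favour of LoGlu. The voom log2 fold change was -1.65 (95% interval -2.03 to -1.26, adjusted p = 3.14e-06 by limma-voom), and it stayed between -1.92 and -1.34 when any library was left out. The gene did not reach 1 RPKM on average and was outside the main test. With no minimum, the log2(RPKM + 0.5) scale gave -0.84 (limma, adjusted p = 0.0454), a value that the added 0.5 pulls toward 0 at such low levels. *Klf15* lies on the plus strand of chromosome 6 (chr6:90412570-90425232, NCBI build 37) and has 3 exons. Its reads rest on a span fitted to the values that is 78 bases shorter than the annotated one.

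Glucocorticoids induce *Klf15* in other tissues, and the receptor with its common targets was looked at beside it. The receptor gene *Nr3c1* read 0.974 and 0.974 RPKM at LoGlu and 0.919 and 0.879 at HiGlu and was not called by voom (adjusted p = 0.321). *Fkbp5*, a chaperone of the receptor that it induces, read 0.872 and 0.838 RPKM against 0.469 and 0.411 and fell by voom, by a log2 value of -0.96 (adjusted p = 1.51e-06). *Tsc22d3*, which codes for the glucocorticoid-induced leucine zipper, fell in the main test (log2 fold change -0.50, limma, adjusted p = 0.00578). *Per1* and *Sgk1* had values in the other direction, with log2 fold changes of 0.27 and 0.44 that were not called in the main test (limma, adjusted p = 0.079 and 0.083) but were called higher by voom (adjusted p = 0.0272 and 0.00835). By voom, 2 of these 6 genes, the receptor included, were called higher and 2 lower. *Zbtb16* lay between 0.0018 and 0.0033 RPKM. Of 3 genes of amino acid breakdown that *Klf15* is known to regulate, *Bcat2*, a branched-chain aminotransferase, fell by voom (log2 fold change -0.72, adjusted p = 0.000127). *Gpt*, an alanine aminotransferase, had a voom value of -0.17 (adjusted p = 0.50) and *Prodh*, proline dehydrogenase, of -0.02 (adjusted p = 0.962). The *Prodh* value rests on an estimated 26, 21, 28 and 19 reads and has a standard error of 0.35, so it cannot tell a change from none.

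*Klf11*, the family member with a described role at the insulin promoter, fell at HiGlu. It read 1.49 and 1.49 RPKM in LoGlu and 1.09 and 0.902 RPKM in HiGlu, so that the groups did not overlap. The log2 fold change was -0.41 (95% interval -0.63 to -0.20, limma, adjusted p = 0.0134) in the main test and -0.58 by voom (adjusted p = 0.00158). *Klf9*, a widely expressed member that steroid and thyroid hormones induce, also fell. Its values were 1.63 and 1.49 RPKM in LoGlu and 1.17 and 1.20 RPKM in HiGlu. The main test gave a log2 fold change of -0.29 (95% interval -0.48 to -0.10, limma, adjusted p = 0.032). This call was lost without LoGlu replicate 1 (-0.24, limma, adjusted p = 0.21) and without HiGlu replicate 1 (-0.28, limma, adjusted p = 0.0565). Mir1192, an annotated miRNA inside the span of *Klf9* on the same strand, read 2.13 to 2.61 RPKM, so a few reads in the *Klf9* value may be shared with it.

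Of the low members with long introns, *Klf3* fell by voom while *Klf13* and *Klf7* were not called. *Klf3*, a repressor that works through CtBP, read 0.711 and 0.639 RPKM in LoGlu and 0.548 and 0.466 RPKM in HiGlu. Its log2 fold change was -0.41 by voom (95% interval -0.67 to -0.15, adjusted p = 0.0133), and this call was lost without LoGlu replicate 1, LoGlu replicate 2 or HiGlu replicate 2 (voom, adjusted p = 0.305, 0.0762 and 0.117). *Klf13*, which binds Sin3a, read 0.466 and 0.446 RPKM against 0.381 and 0.420. Its HiGlu libraries were lower, yet the log2 fold change of -0.19 (95% interval -0.42 to 0.03, adjusted p = 0.164 by voom) lies near the median of all transcripts. *Klf7*, known for its part in axon growth, read 0.082 and 0.0905 RPKM against 0.0665 and 0.0666, with a log2 fold change of -0.37 that missed the threshold by voom (95% interval -0.68 to -0.06, adjusted p = 0.05005). The span behind the *Klf7* value is not settled by its low RPKM, whose rounding covers up to 0.26 reads, and a non-coding gene, Gm13748, lies inside it on the other strand.

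*Klf4* and *Klf2* rose at HiGlu. *Klf4*, one of the factors used to reprogram cells to pluripotency and a regulator of epithelia and endothelium, read 1.35 and 1.38 RPKM in LoGlu and 2.14 and 1.94 RPKM in HiGlu. The 2 HiGlu libraries stood clear of the LoGlu libraries, and the ratio of the means was 1.498. The log2 fold change was 0.45 (95% interval 0.25 to 0.65, limma, adjusted p = 0.00821) in the main test and 0.58 by voom (adjusted p = 0.00236). The main call missed the threshold with no minimum RPKM (limma, adjusted p = 0.0503), and the voom call was lost without LoGlu replicate 1 (adjusted p = 0.0957) or LoGlu replicate 2 (adjusted p = 0.0574). *Klf2*, a factor of endothelium and of resting lymphocytes, read 0.251 and 0.208 RPKM in LoGlu and 0.407 and 0.387 RPKM in HiGlu. These values rest on 38, 28, 64 and 51 reads, the fewest of any member. The voom log2 fold change of 0.79 (95% interval 0.16 to 1.41) passed with an adjusted p of 0.0412, and the call was lost whenever any of the 4 libraries was left out (voom, adjusted p from 0.0911 to 0.354).

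Endothelial cells are a known source of *Klf2* and *Klf4*, and their markers moved with the replicates as well as with the groups. The 12 endothelial markers summed to 7.69 and 5.30 RPKM in LoGlu and to 9.21 and 6.50 RPKM in HiGlu. By voom, 5 of the 12 were called higher and 0 lower, with a median log2 fold change of 0.336, while the main test took 2 of them and called 0 (limma, with 1 at an unadjusted p under 0.05). The markers with the highest levels were *Egfl7*, *Esam* and *Plvap*, with voom log2 fold changes of 0.52, 0.09 and 0.05. Replicate 1 was higher than replicate 2 in both groups in the endothelial sum, as it was for *Klf2*, whereas *Klf4* was not ordered in this way at LoGlu. *Klf3*, *Klf6*, *Klf10* and the sum of the macrophage and leukocyte markers had this order too, so it is not particular to *Klf2*. The LoGlu values of *Klf4*, 1.35 and 1.38 RPKM, lie close and the reads of *Klf2* are few, so no source is read from these orders. The part of endothelial RNA in the *Klf2* and *Klf4* values was not tested. Macrophage and leukocyte markers summed to 15.8 to 20.6 RPKM in LoGlu and 18.6 to 23.0 RPKM in HiGlu, with 2 of 10 higher by voom, and stromal markers to 2.68 to 4.88 and 3.70 to 3.72 RPKM, with 1 of 10 lower. Exocrine markers summed to 118 and 299 RPKM in LoGlu and 266 and 529 RPKM in HiGlu, so that replicate 2 was higher in both groups, with 1 of 9 called higher in the main test and 9 of 9 by voom. Of 9 islet endocrine genes, 5 were called higher in the main test and 7 by voom. Their part in the Klf values was not tested.

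*Klf6* and *Klf10* had the highest RPKM of the family in both groups and were not called. *Klf6*, a widely expressed member induced by tissue injury, read 2.17 and 2.02 RPKM in LoGlu and 2.75 and 2.06 RPKM in HiGlu. Its groups overlapped, as only HiGlu replicate 1 stood above the rest. The log2 fold change was 0.15 (95% interval -0.14 to 0.45, limma, adjusted p = 0.37), and without HiGlu replicate 1 it turned to -0.02 (limma, adjusted p = 0.926). *Klf10*, which TGF-beta induces early, read 2.67 and 2.39 RPKM in LoGlu and 3.07 and 2.54 RPKM in HiGlu, again with overlap. Its log2 fold change was 0.12 (95% interval -0.14 to 0.38, limma, adjusted p = 0.426). The other *Klf10* entry, with a longer span of 9247 bases, read 1.82 and 1.64 RPKM against 2.10 and 1.74 RPKM. It holds nearly the same reads as the entry used, 984, 787, 1177 and 819 against 983, 784, 1174 and 813.

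**Figure D2:**
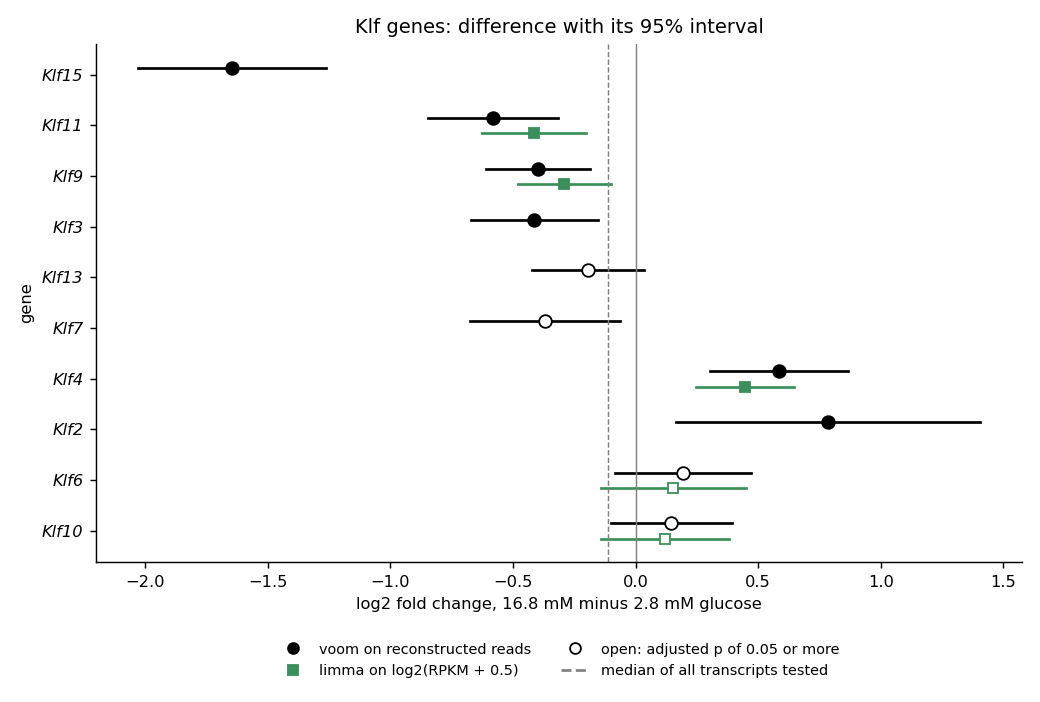
Log2 fold change of each Klf gene, HiGlu minus LoGlu (horizontal axis), with its 95% interval, by voom on reconstructed reads (black circles) and, for the 5 genes with a mean of at least 1 RPKM, by limma on log2(RPKM + 0.5) (green squares). Filled symbols have an adjusted p under 0.05, and the dashed line is the main-test median of all transcripts at -0.112. *Klf15* lies farthest to the left at -1.65.

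The order of the levels changed with the length that RPKM was divided by. On the deposited scale, *Klf10* led at LoGlu with 2.53 ± 0.19 RPKM (SD, n = 2), followed by *Klf6* with 2.09 ± 0.10, *Klf9* with 1.56 ± 0.10, *Klf11* with 1.49 ± 0.0019, *Klf4* with 1.36 ± 0.025 and *Klf15* with 0.944 ± 0.013. *Klf3*, *Klf13*, *Klf2* and *Klf7* came last. Of these neighbours, *Klf9* and *Klf11* overlapped. At HiGlu, *Klf4* moved up from rank 5 to 3 and *Klf15* down from 6 to 9, and the pairs *Klf10* and *Klf6*, *Klf6* and *Klf4*, and *Klf13* and *Klf2* overlapped. The summed RPKM of the 10 genes changed little, with 11.8 and 11.1 in LoGlu and 11.9 and 10.4 in HiGlu. Within that sum, *Klf4* went from 11.9% to 18.4% and *Klf15* from 8.26% to 2.79%.

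Divided instead by the exons of the protein-coding models of each gene, the levels had another order. This scale takes all reads as exonic, so it can be too high where intronic reads were counted. It can be too low where all models together hold more exonic bases than the transcript expressed. For *Klf7* they hold 8133 bases, against 1332 in the transcript nearest in span. The order below depends on this choice. *Klf9* then led in both groups, with 12.3 ± 0.82 at LoGlu and 9.32 ± 0.18 at HiGlu (exonic RPKM, SD, n = 2), and *Klf3* came next with 6.87 ± 0.52 and 5.16 ± 0.59. *Klf15* ranked 3 at LoGlu with 4.70 ± 0.065 and 8 at HiGlu with 1.55 ± 0.44. *Klf2* was lowest in both, with 0.322 ± 0.043 and 0.557 ± 0.019. A change of the length does not alter the ratio between the groups.

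**Figure D3:**
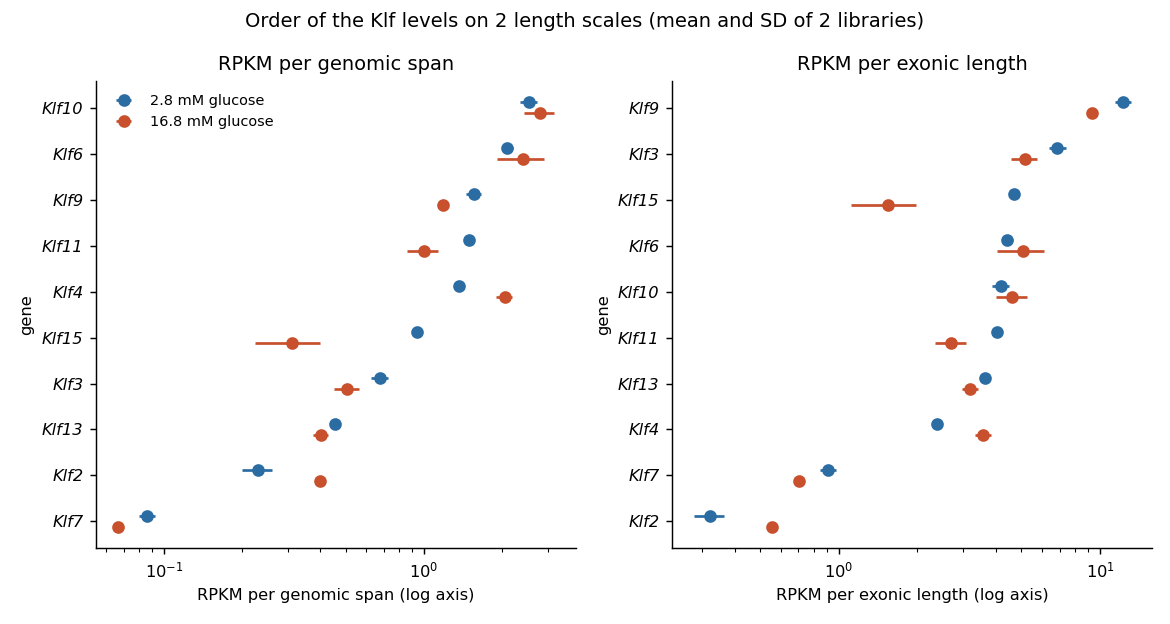
Mean and SD of 2 libraries for each Klf gene at 2.8 mM (blue) and 16.8 mM glucose (red), in RPKM per genomic span (left, log axis) and per exonic length (right, log axis), with genes sorted by their LoGlu mean. *Klf10* leads on the left with 2.53 and *Klf9* on the right with 12.3, and *Klf15* shows the widest gap between the groups in both.

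The remaining Krüppel-like and Sp genes gave a list of 16, of which the main test could take 2. Both were called lower, *Sp1* (log2 fold change -0.27, limma, adjusted p = 0.0441) and *Sp3* (-0.30, limma, adjusted p = 0.0293). These are the widely expressed Sp factors that compete for the same GC boxes. By voom, 5 of 10 were called lower and 0 higher, with a median of -0.373, and the widest falls were in *Sp2* (-0.82, adjusted p = 2.78e-05) and *Klf16* (-0.56, adjusted p = 0.00452). *Klf14* and *Sp9* were listed at 0 in all 4 libraries. Among the 9 co-regulators that bind Krüppel-like factors, the main test took 5 and called 2, both lower. *Ctbp1*, the co-repressor bound by *Klf3*, read 4.49 and 4.24 RPKM against 2.99 and 2.86 (log2 fold change -0.51, limma, adjusted p = 0.00736), and *Hdac2*, a histone deacetylase, read 2.27 and 2.06 RPKM against 1.58 and 1.46 (-0.40, limma, adjusted p = 0.0143). By voom, 6 of the 9 were lower and 0 higher.

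Pathways known to induce family members did not move in 1 direction. In the ERK5 and MEF2 pathway, which induces *Klf2* and *Klf4* in endothelium, 0 of 2 genes were called in the main test (limma; 0 had an unadjusted p under 0.05) and 1 of 6 by voom, *Mef2a*, which was lower with a log2 fold change of -0.49. In the TGF-beta and SMAD list of 10 genes, *Skil*, an inhibitor of SMAD signalling, was the gene with enough RPKM for the main test and read 1.63 and 1.54 RPKM in LoGlu against 1.58 and 1.32 RPKM in HiGlu (log2 fold change -0.10, limma, adjusted p = 0.418). By voom, 2 of the 10 were higher and 3 lower. Immediate early genes, a class to which several Klf genes belong in stimulated cells, rose in 8 of 10 tested genes with a median log2 fold change of 1.17 in the main test. By voom, 9 of 12 were higher and 2 lower, the latter *Jund* (-0.35, adjusted p = 0.0119) and *Atf3* (-0.48, adjusted p = 0.0287), named after their values were seen. *Egr1* read 1.17 and 1.17 RPKM in LoGlu and 9.88 and 7.90 RPKM in HiGlu (log2 fold change 2.48, limma, adjusted p = 6.1e-05). *Fos*, *Nr4a1* and *Fosl2* rose with log2 fold changes of 2.05, 1.70 and 1.37.

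Genes described as targets of Krüppel-like factors included the insulin genes. Of 7 tested, 5 rose and 1 fell in the main test, against 10.7% higher and 22.8% lower among all transcripts. The median log2 fold change of the 7 was 0.692. *Ins1* read 3113 and 3071 RPKM in LoGlu and 10740 and 10360 RPKM in HiGlu (log2 fold change 1.77, limma, adjusted p = 8.55e-05), while *Klf11* fell. *Pdx1*, a beta cell transcription factor, rose (log2 fold change 1.30, limma, adjusted p = 0.000595), and *Ins2* with 0.75 (limma, adjusted p = 0.00224). *Cdkn1a* read 6.77 and 7.16 RPKM in LoGlu and 11.19 and 9.52 RPKM in HiGlu (log2 fold change 0.54, limma, adjusted p = 0.0162). Of targets known from endothelium, *S1pr1*, a sphingosine phosphate receptor, rose with 0.69 (limma, adjusted p = 0.0354), whereas *Thbd*, thrombomodulin, fell (log2 fold change -0.50, limma, adjusted p = 0.0198). *Klf2* is known to induce both in endothelium. Here they had opposite signs, and an effect of *Klf2* on them was not tested. *Nos3*, another endothelial target on the list, was under 1 RPKM. Its HiGlu libraries lay above its LoGlu libraries, and it was not called by voom (log2 fold change 0.52, adjusted p = 0.075). *Cdkn1a*, *Thbd*, *Nos3*, *Bcat2*, *Prodh* and *Gpt* were named after their values were seen.

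**Figure D4:**
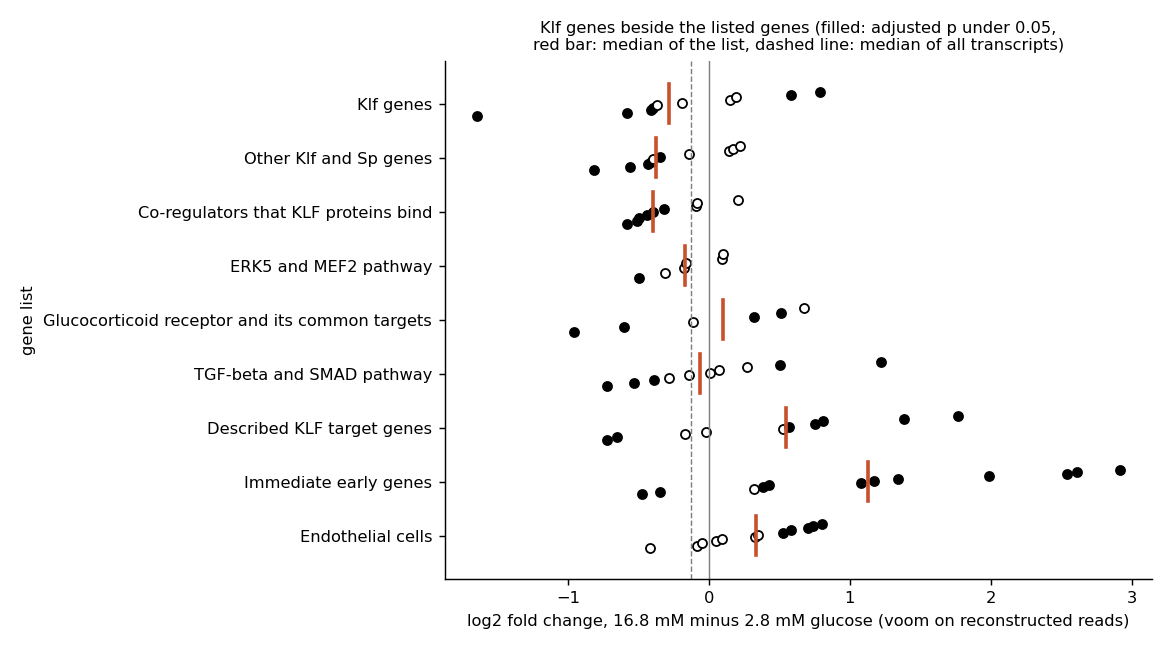
Voom log2 fold change, HiGlu minus LoGlu (horizontal axis), of each gene in the Klf family and in the listed groups (rows), with filled points for an adjusted p under 0.05, a red bar for the median of each list and a dashed line for the median of all 18982 transcripts at -0.125. The Klf genes spread from -1.65 to 0.79, and the immediate early genes have the highest median of the lists shown.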

How the data were processed

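Total RNA from pooled mouse islets was the input of 4 RNA-seq libraries, 2 at each glucose concentration, grouped by their titles. The authors deposited RPKM values in 1 table, and its 4 sample columns were all used. The submitters' notes name STAR, bedtools, DESeq and mm9 (NCBI build 37). How islet reads were counted and whether strand was used is not given in the sources used here, so reads of overlapping genes may be shared. In the paper's methods, reads were 50-base single reads; counting over RefSeq exons is described for the alpha and beta cell libraries only.

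Depth was recovered from the steps of miRNA values, of which 98.9% to 99.1% were whole reads within 0.05, and reads were reconstructed for 27594 of 27902 RefSeq transcripts. They are estimates of the authors' counts. Where several annotated spans of a gene fitted equally well, the longest was taken, so some estimates can be too high. *Ins2*, for example, was given 38004184 of the 60710000 reads of HiGlu replicate 1. The span does not alter ratios between libraries, but it enters the read minimum and the weights of voom. The voom shares over all transcripts rest on these reads. Identical entries of a gene were merged. The main test was limma 3.58.1 in R 4.3.3 on log2(RPKM + 0.5) with moderated variances that follow a trend over level, and p-values were adjusted by Benjamini-Hochberg over the transcripts whose mean reached 1 RPKM. The constant of 0.5 understates changes of low genes. Limma-voom on transcripts with a mean of at least 20 reads was an alternative. Both the number of libraries and, for genes with few reads, depth limit the precision, and PCR duplicates cannot be told apart.

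The genes and lists were chosen with earlier results of these data known. The text names all 10 Klf genes, from each pathway list up to 4 called genes with the largest changes or any gene of a list with up to 6 tested, and up to 3 markers per cell type by level. Lists are described by counts and medians, with no set test. The values of 1 listed gene are not reported here, and it was left out of its list. Exonic lengths, levels per exonic length, ratios of means and voom without each library in turn were added after the data were seen. Exons came from GENCODE vM1 (NCBI build 37) and promoters from RefSeq (GRCm38.p6). Protein sequences were not used here. Tables and figures used Python 3.11.15, pandas 2.3.3, numpy 2.4.6 and matplotlib 3.10.9.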

Additional observations from a re-analysis of the deposited data

How the results depend on the processing

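The cause was not tested for any shift below. In the main test, 3 of the 5 Klf genes tested (1 higher, 2 lower) and 2628 of 7867 transcripts were called. With no minimum RPKM, 1 of 10 Klf genes was called (0 higher, 1 lower, *Klf15*), against 2562 of 28047 transcripts. *Klf4*, *Klf9* and *Klf11* then missed the threshold (limma, adjusted p = 0.0503, 0.0737 and 0.0814). With at least 1 RPKM in every library *Klf11* could not be tested, which left 1 lower call, beside 2733 of 6909 transcripts. Without the variance trend *Klf9* was lost, which left 1 lower call, beside 2554 of 7867 transcripts. Limma-voom on reconstructed reads called 6 of 10 Klf genes (2 higher, 4 lower) and 7918 of 18982 transcripts. The replicate block kept the same 3 Klf calls and gave 4067 of 7867 transcripts. Voom with the replicate block called 8 of 10 Klf genes (2 higher, 6 lower, with *Klf7* and *Klf13* added) and 10707 of 18982 transcripts. The paper took control and stimulated islets from the same pool. Libraries of equal replicate number had a correlation of 0.31 between their deviations. The exocrine and endothelial sums were ordered by this number alike in both groups. Whether equal numbers share a preparation is not given, and the main test did not pair them.

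Without each library in turn, the main test called 2 to 3 Klf genes (1 higher, 1 to 2 lower) and 2039 to 2734 transcripts, and voom 2 to 5 Klf genes (0 to 2 higher, 2 to 4 lower) and 3425 to 6808 transcripts, with the lone library taken to vary like the other group. By voom, *Klf4* lost its call without LoGlu replicate 1 (adjusted p = 0.0957) or LoGlu replicate 2 (adjusted p = 0.0574), and *Klf9* without LoGlu replicate 1 (adjusted p = 0.222). *Klf15* and *Klf11* were called in each of these 4 voom fits. The log2 fold change of *Klf6* turned from 0.15 to -0.0177 in the main test and from 0.19 to -0.023 by voom without HiGlu replicate 1, and was 0.326 and 0.393 without HiGlu replicate 2, when voom called it (adjusted p = 0.0258). No other Klf gene changed sign under any alternative run. Centring each library on its median or quantile normalization kept the 3 main calls, and moved the share of higher calls among all transcripts from 31.9% to 44.1% and 42.3%. *Klf10* then narrowly missed the threshold (limma, adjusted p = 0.055 and 0.059). Its other entry, with nearly the same reads, was called higher (log2 fold change 0.20 and 0.20, limma, adjusted p = 0.0438 and 0.0482).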
